A study of Homo sapiens with 6 samples.

Results

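The SLC12 genes encode the cation-chloride cotransporters, and 4 of them were followed here through treatment of myeloma cells with an inhibitor of the WNK kinases: SLC12A2, SLC12A4, SLC12A7 and SLC12A9. They were chosen by name, by a rule for NKCC, KCC and related transporters that it describes as downstream of the WNK kinases. The choice does not show that each is a WNK target. The rule uses no measured value but was set with earlier results of these data known. Each member was found among the 60728 genes counted. All 4 were among the 15548 genes that passed the filter on low counts. SLC12A1, SLC12A3, SLC12A5 and SLC12A8, which are not members, are given beside them.

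The libraries came from JJN3, a human multiple myeloma cell line labelled wild type. There were 3 groups of 2 libraries: DMSO vehicle, WNK463 at 2 h, and WNK463 at 6 h. The compound WNK463 blocks the catalytic activity of the WNK kinases. The sample protocol puts its dose at 5 µM but the series design puts it at 1 µM, and the labels do not settle which holds. The time label of the DMSO libraries reads control and gives no hours, so time in culture and treatment cannot be told apart. All groups are of 1 cell line, and no label says that replicates came from separate cultures, so the p-values reflect the spread among these libraries, which may be technical.

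Cation-chloride cotransporters move chloride together with sodium or potassium across the plasma membrane and so set the chloride content and volume of a cell. SLC12A2 encodes NKCC1, which carries sodium, potassium and chloride into the cell. SLC12A4 and SLC12A7 encode KCC1 and KCC4, which carry potassium and chloride out. WNK kinases activate the kinases OXSR1 and STK39, which phosphorylate both kinds of transporter: phosphorylation switches NKCC1 on and the KCC proteins off. SLC12A9 encodes a related protein whose transported ions are less well established. The counts measured transcripts and not transport or phosphorylation.

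The stretches of DNA before the starts of SLC12A2 and SLC12A7 are shown because these were the members whose transcripts passed the test, and in opposite directions. Each is the 250 bases before the gene's start in RefSeq (GRCh38.p14), read 5′ to 3′ on the strand of the gene, and in both genes the start is also the outer end of the gene in the deposited count table. Capitals mark matches to the motifs searched, described after the sequences. SLC12A2 lies on the plus strand of chromosome 5, and the window is chr5:128083516-128083765. SLC12A7 lies on the minus strand of the same chromosome, and the window is chr5:1112064-1112313.
SLC12A2: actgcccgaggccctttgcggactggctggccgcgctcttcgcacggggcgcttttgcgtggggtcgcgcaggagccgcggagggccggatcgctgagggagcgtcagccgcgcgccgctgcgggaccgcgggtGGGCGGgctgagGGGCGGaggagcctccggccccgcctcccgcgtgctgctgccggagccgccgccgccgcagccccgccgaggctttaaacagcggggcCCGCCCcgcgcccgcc
SLC12A7: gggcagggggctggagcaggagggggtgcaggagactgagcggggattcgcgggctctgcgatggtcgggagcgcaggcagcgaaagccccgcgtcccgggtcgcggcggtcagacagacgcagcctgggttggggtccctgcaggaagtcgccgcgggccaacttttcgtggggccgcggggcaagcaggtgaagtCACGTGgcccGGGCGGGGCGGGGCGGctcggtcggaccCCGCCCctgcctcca

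Motifs were searched on both strands of the whole windows of 300 bases, 250 before and 50 after each start. GGGCGG, the GC box bound by SP1 family factors, was found 3 times before the start of SLC12A2 and 4 times before that of SLC12A7. GGGCGG was also found before starts of SLC12A4 and SLC12A9, the members whose transcripts did not pass the test. It was present in 45.0% of all 35116 RefSeq promoter windows. CACGTG, the E-box bound by MYC and related factors, was found in the SLC12A7 window at position -53 from the start and not in the SLC12A2 window, against 7.26% of all windows. It was also found in the window of the inner of the 2 starts of SLC12A9. TGGAAA, the core of the tonicity element bound by NFAT5, was found only before 1 of the 4 starts of SLC12A4 and is in 20.7% of all windows. TGACTCA (AP-1, 4.95% of all windows), TGACGTCA (CRE, 1.85%) and GTAAACA (FOXO, 3.42%) were in no window of the 4 members. No motif in the search is contained in another, but neighbouring GC boxes of SLC12A7 share a base. GC content was 78.7% in the SLC12A2 window and 76.3% in the SLC12A7 window, against a median of 58.7% over all windows. A match is a description of letters and not evidence of binding.

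Total counts ran from 18013790 to 24002291 per library, and 3 counts in a library equal 0.125 to 0.167 CPM, the count relative to the library total. Levels below are CPM scaled by library size and TMM factors, and RPKM is CPM per kilobase of merged exons. Of the 8 plasma cell markers, among them IRF4, PRDM1, XBP1 and SDC1, all passed the filter, with a summed level of 1388 to 1515 CPM. Single plasma cell markers moved: at 6 h PRDM1 and SLAMF7 were called higher and IRF4, XBP1 and MZB1 lower, and at 2 h PRDM1 and SDC1 were called higher and IRF4 lower. The marker lists of T cells, fibroblasts, erythroid, myeloid and B cells summed to at most 4.39 CPM in any library. Of these, the B cell marker PAX5 was lower at 6 h, at 1.71 CPM against 3.81 CPM in the DMSO group. The 4 epithelial markers summed to 102 CPM in both DMSO libraries, 126 and 130 CPM at 2 h, and 119 and 126 CPM at 6 h, most of it EPCAM. Against DMSO, EPCAM was called higher at 2 h (1.22-fold, adjusted p = 0.00756), and CDH1 was called higher at 2 h (1.52-fold, adjusted p = 0.0480) and at 6 h (2.10-fold, adjusted p = 8.31e-05). The part of these markers in the members' changes was not tested. The spread between replicates exceeded sampling noise in each group, with a chi-square statistic of 8.41 in DMSO, 4.15 at 2 h and 3.57 at 6 h for each degree of freedom.

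Per length, SLC12A7 was the highest member by a wide margin. In DMSO it stood at 34.3 ± 1.36 RPKM (SD, n = 2), SLC12A2 at 5.51 ± 0.0839, SLC12A9 at 2.85 ± 0.320 and SLC12A4 at 1.87 ± 0.0292. The 4 genes held this order in DMSO and at both times after WNK463, without overlap between the libraries of neighbours in any group. SLC12A7 made up 77.01% of the summed RPKM of the 4 members in DMSO, 69.2% at 2 h and 69.5% at 6 h. SLC12A2 made up 12.4%, 18.5% and 18.5%, SLC12A9 6.40%, 6.78% and 6.41%, and SLC12A4 4.202%, 5.53% and 5.59%. The shares depended on the length used. Per length of the longest coding transcript the order was the same in each group, but SLC12A9 (7.15 and 8.38 RPKM) came close to SLC12A2 (8.44 and 8.62 RPKM) in DMSO. By that length SLC12A9 made up 13.2%, 13.6% and 12.9%, and SLC12A7 66.6%, 58.1% and 58.6%.

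**Figure D1:**
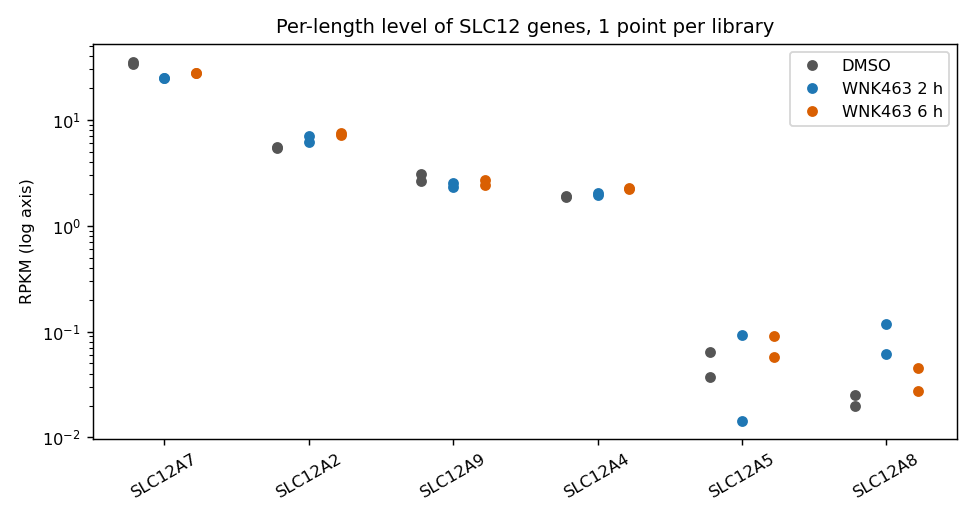
RPKM of 6 SLC12 genes on a log axis, with 1 point per library and colours for DMSO, WNK463 2 h and WNK463 6 h. SLC12A7 is the highest in every group, and the 4 members stand above SLC12A5 and SLC12A8 in every library.

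SLC12A2, the chloride importer, was higher after WNK463. Its transcripts stood at 59.4 and 58.1 CPM in DMSO, 66.3 and 74.3 CPM at 2 h, and 80.2 and 77.03 CPM at 6 h. The 3 groups did not overlap, and the 2 h libraries lay between the others. At 6 h SLC12A2 rose 1.34-fold over DMSO (log2 change 0.42 ± 0.0901 SE, 95% interval 0.24 to 0.60, adjusted p = 0.000191, edgeR quasi-likelihood test). The rise at 2 h was smaller, 19.8% (log2 change 0.26 ± 0.0903, adjusted p = 0.0384), and close to the threshold of 0.05. The call at 2 h was lost under 7 of 15 alternative analyses, with an adjusted p of up to 0.449, the latter without 2 h replicate 2 (log2 change 0.17). It was also lost without DMSO replicate 2 (0.25, adjusted p = 0.0563), without 6 h replicate 1 (0.26, adjusted p = 0.0698) or replicate 2 (0.26, adjusted p = 0.0682), and with library size alone as the scaling (0.23, adjusted p = 0.0726). The rise at 6 h held under all 15 (adjusted p at most 0.0106). The levels at 6 h and 2 h could not be told apart (0.16, 95% interval -0.02 to 0.34, adjusted p = 0.205). On hg38, SLC12A2 (ENSG00000064651.14) spans chromosome 5 from 128083766 to 128189677, and none of its exonic bases is shared with another gene.

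SLC12A7, the KCC4 gene and the most abundant member, was lower after WNK463. It stood at 212 and 200.2 CPM in DMSO, 148 and 149 CPM at 2 h, and 167 and 166 CPM at 6 h. Both DMSO libraries lay above all 4 treated libraries, and the 2 h libraries were the lowest. At 2 h SLC12A7 fell by 27.9% against DMSO (log2 change -0.47 ± 0.0683 SE, 95% interval -0.61 to -0.33, adjusted p = 8.65e-07). At 6 h it fell by 19.1% (-0.31 ± 0.0682, adjusted p = 0.00031). Both falls were called under all 15 alternatives, with an adjusted p of at most 0.00013 at 2 h and 0.0163 at 6 h. The 6 h libraries stood above the 2 h libraries by a log2 change of 0.17 ± 0.0686 that was not called (adjusted p = 0.0716). That difference was called without DMSO replicate 1 (0.16, adjusted p = 0.0118), without DMSO replicate 2 (0.16, adjusted p = 0.0158), in a fit of only the groups compared (0.15, adjusted p = 0.0179) and with library size alone (0.23, adjusted p = 0.00899). SLC12A7 (ENSG00000113504.21) spans chromosome 5 from 1050384 to 1112063 and shares no exonic base with another gene.

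SLC12A4, the widely expressed KCC1 gene, had 15.3 and 15.7 CPM in DMSO, 16.7 and 16.1 CPM at 2 h, and 18.3 and 18.7 CPM at 6 h. The groups did not overlap, and the 6 h libraries were the highest, but no comparison was called. Its log2 change at 6 h against DMSO was 0.25 (95% interval -0.04 to 0.55, adjusted p = 0.184), an interval that reaches from 0.971-fold to 1.46-fold. At 2 h it was 0.08 (95% interval -0.22 to 0.38, adjusted p = 0.785). SLC12A4 (ENSG00000124067.17) spans chromosome 16 from 67943474 to 67969601 and shares 4.05% of its exonic length with LCAT on the same strand.

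SLC12A9 had 27.4 and 23.4 CPM in DMSO, 22.4 and 20.7 CPM at 2 h, and 21.6 and 23.9 CPM at 6 h. Its DMSO libraries lay further apart than those of SLC12A2, SLC12A4 and SLC12A7 in relation to their mean, and the 6 h libraries overlapped both other groups. The log2 change was -0.24 at 2 h (95% interval -0.50 to 0.03, adjusted p = 0.240) and -0.16 at 6 h (95% interval -0.42 to 0.11, adjusted p = 0.381), and neither was called. Without DMSO replicate 1 the 2 h value was -0.12 and the 6 h value -0.04, and without DMSO replicate 2 they were -0.34 and -0.27. Without 6 h replicate 1 the 6 h value was -0.09. SLC12A9 (ENSG00000146828.18) spans chromosome 7 from 100826820 to 100867010 and shares 0.78% of its exonic length with EPHB4 on the other strand.

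**Figure D2:**
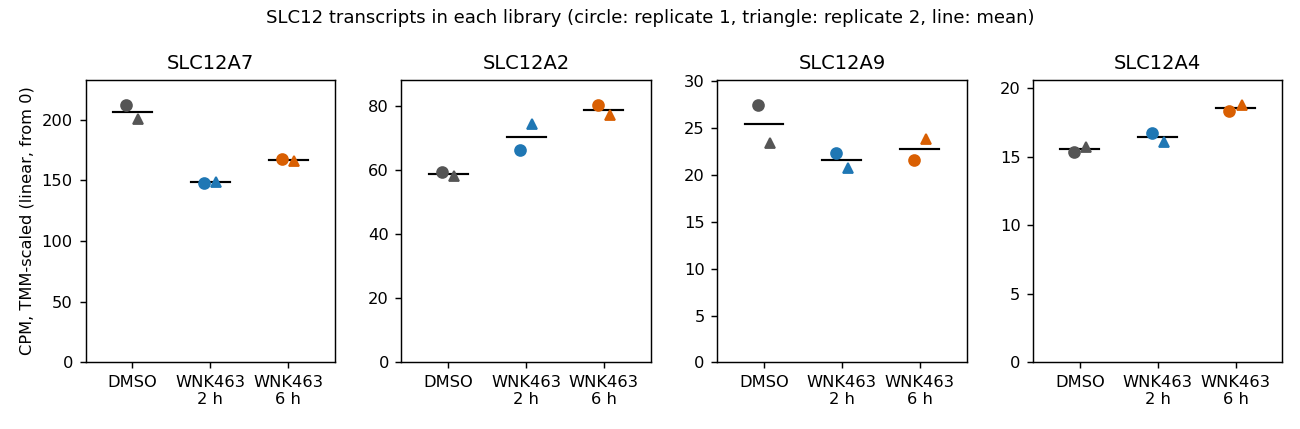
CPM in each library for the 4 members, with a circle for replicate 1, a triangle for replicate 2 and a line at the mean of the 2; each panel has its own linear axis from 0. The DMSO points of SLC12A7 (200.2 and 212 CPM) lie above all treated points, and those of SLC12A2 (58.1 and 59.4 CPM) lie below them.

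Against DMSO 2 of the 4 members were called at 2 h, 1 higher and 1 lower, where 17.0% of all tested genes were called, 8.68% higher and 8.32% lower. At 6 h 2 members were called, again 1 higher and 1 lower, where 36.6% of all tested genes were called, 18.0% higher and 18.6% lower. Between 6 h and 2 h none of the 4 was called in edgeR, where 24.3% of all tested genes were, 11.1% higher and 13.1% lower. In that comparison 1 member, SLC12A7, had an unadjusted p under 0.05 (0.0196), and DESeq2 and limma voom also called none. The direction of calls in that comparison moved with the scaling, with 1731 genes higher and 2041 lower by TMM and 2409 higher and 1523 lower by library size alone. The median log2 change of the 4 members was -0.08 at 2 h and 0.05 at 6 h, beside -0.0049 and -0.0050 over all tested genes. Both libraries of one group lay outside the other group in all 4 members at 2 h and in 3 at 6 h, which was so in 54.5% and 65.8% of all tested genes. Between 6 h and 2 h this held for 3 members and for 62.0% of all tested genes. The changes at 2 h and 6 h are measured from the same DMSO libraries. In size the changes were moderate: 14.1% of tested genes had a lower log2 change than SLC12A7 at 2 h, and 78.9% had a lower one than SLC12A2 at 6 h.

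**Figure D3:**
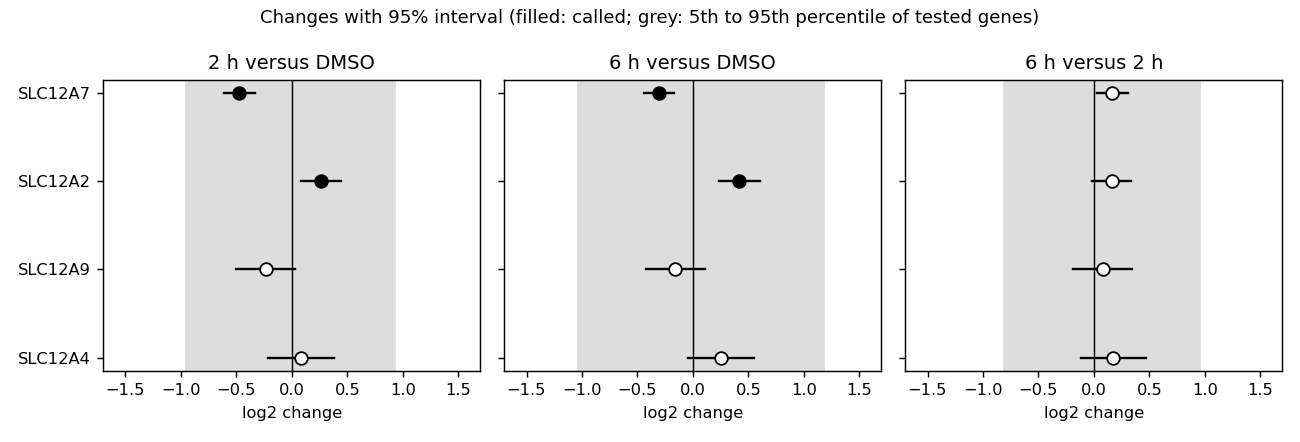
Log2 changes of the 4 members in the 3 comparisons, with 95% intervals; filled points were called at an adjusted p under 0.05, and the grey band runs from the 5th to the 95th percentile of all tested genes. SLC12A7 and SLC12A2 lie on opposite sides of 0 in both comparisons with DMSO and inside the band.

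The balance between exporter and importer transcripts was read as the summed RPKM of SLC12A4 and SLC12A7 over that of SLC12A2. In DMSO the ratio was 6.66 and 6.46, at 2 h it was 4.28 and 3.83, and at 6 h it was 3.999 and 4.13. All treated libraries lay below both DMSO libraries, and the 2 h and 6 h groups overlapped. The means were 6.56 ± 0.141 in DMSO, 4.06 ± 0.317 at 2 h and 4.06 ± 0.0904 at 6 h (SD, n = 2). It is given as a description, since an exact two-sided permutation test of 2 libraries against 2 cannot go below p = 0.333, and SLC12A2 and SLC12A7 set both its parts.

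**Figure D4:**
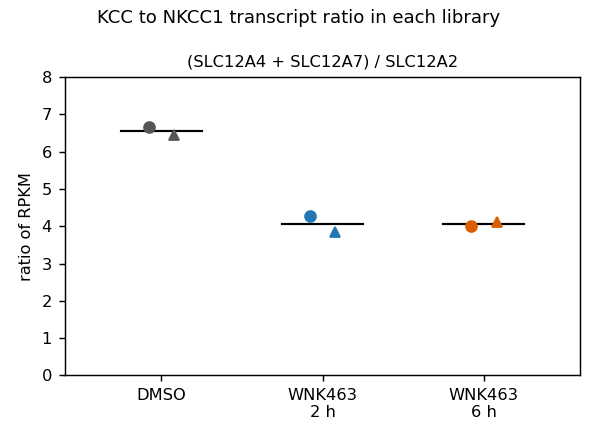
Ratio of the summed RPKM of SLC12A4 and SLC12A7 to the RPKM of SLC12A2 in each library, on a linear axis from 0; points are libraries (circle replicate 1, triangle replicate 2) and lines are means. The DMSO points (6.46 or more) lie above all treated points (4.28 or less).

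The kidney transporter genes and the neuronal KCC2 gene were at or near 0. SLC12A3 had 0 counts in all 6 libraries, and SLC12A1 had at most 5 in any library. SLC12A5 had 3 to 16 counts per library, and its changes were not called, with wide intervals (-1.89 to 1.92 at 2 h, on the log2 scale). SLC12A8 had 2 and 3 counts in DMSO, 12 and 8 at 2 h, and 3 and 5 at 6 h, and did not pass the filter. The noncoding gene SLC12A2-DT starts 594 bases from SLC12A2 on the other strand. It had 14.8 and 17.2 CPM in DMSO, 13.0 and 10.3 CPM at 2 h, and 10.7 and 13.5 CPM at 6 h. Its log2 changes, -0.46 at 2 h (adjusted p = 0.0532) and -0.40 at 6 h (adjusted p = 0.0615), were just short of the threshold and opposite in sign to those of SLC12A2. Under 6 alternatives the former was called, among them without DMSO replicate 1 (-0.56, adjusted p = 0.0306) and without 2 h replicate 1 (-0.63, adjusted p = 0.0316). It was smaller without 2 h replicate 2 (-0.30, adjusted p = 0.431) and without DMSO replicate 2 (-0.34, adjusted p = 0.272). The latter was called without DMSO replicate 1 (-0.50, adjusted p = 0.0368) or 6 h replicate 2 (-0.58, adjusted p = 0.0396), and it was smaller without 6 h replicate 1 (-0.24, adjusted p = 0.461) and without DMSO replicate 2 (-0.29, adjusted p = 0.308).

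Most tested genes of the list of WNK cascade kinases and scaffolds rose at 6 h. Of 12 tested genes of the list (14 in all), 5 were called higher and 0 lower at 2 h, and 8 higher and 1 lower at 6 h, with median log2 changes of 0.21 and 0.52. Over all tested genes, 8.68% were called higher and 8.32% lower at 2 h, and 18.0% higher and 18.6% lower at 6 h. WNK1, the WNK kinase with the highest count here, stood at 271 ± 4.03 CPM in DMSO, 316 ± 6.29 CPM at 2 h and 404 ± 11.0 CPM at 6 h (SD, n = 2). It rose 1.49-fold at 6 h (adjusted p = 8.93e-11). WNK2 fell from 16.5 ± 1.93 to 7.80 ± 1.56 CPM at 6 h, a log2 change of -1.08 (adjusted p = 2.70e-06). STK39, which phosphorylates the transporters, had 62.7 ± 8.54 CPM in DMSO and 88.4 ± 1.51 CPM at 6 h (0.49, adjusted p = 2.06e-05). OXSR1, its close relative, was not called against DMSO at either time. NRBP1, which encodes a pseudokinase that partners WNK kinases, rose 1.66-fold at 6 h, and the leucine-zipper genes TSC22D1 and TSC22D2 rose 1.93-fold and 1.79-fold at 2 h.

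Of 6 tested genes for WNK turnover and upstream control (8 in all), 1 was called higher and 0 lower at 2 h, and 4 higher and 0 lower at 6 h, with medians of 0.08 and 0.59. The share called at 2 h was near the 17.0% over all tested genes, and that at 6 h stands beside 36.6%. Of the calls at 6 h, that of SGK3 was lost under 4 of 15 alternatives and that of KLHL2 under 2. The 6 h median also rests on KLHL3, which was not called (1.13 ± 0.643 SE) and stood at 0.774 CPM in DMSO. SGK1, a kinase that responds to cell volume and hormones, rose 3.13-fold at 2 h, from 6.40 ± 1.29 to 19.9 ± 1.18 CPM, and was 1.92-fold over DMSO at 6 h. NEDD4L, a ubiquitin ligase that SGK1 restrains, rose 1.35-fold at 6 h.

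Of 10 tested channel genes (11 in all), 4 were called higher and 0 lower at 2 h, and 4 higher and 2 lower at 6 h, with medians of 0.24 and 0.23, beside 17.0% and 36.6% of all tested genes called. KCNN4, a calcium-activated potassium channel, rose 3.31-fold at 6 h, from 5.29 ± 1.21 to 17.5 ± 0.787 CPM. LRRC8C, a subunit of the volume-regulated anion channel, rose 1.59-fold at 2 h, with log2 changes of 0.67 at 2 h and 0.76 at 6 h. LRRC8D, another subunit of that channel, had a log2 change of -0.47 at 6 h (adjusted p = 3.97e-05), and the chloride channel gene CLCN2 one of -0.98 (adjusted p = 1.15e-05). Of the related genes, LRRC8A was called higher at 2 h (1.25-fold, adjusted p = 0.0149, edgeR) and at 6 h (1.24-fold, adjusted p = 0.00968). Its call at 2 h was lost under 2 of 15 alternatives. LRRC8B was not called at either time.

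Of 6 tested pump and exchanger genes (11 in all), 2 were called higher and 0 lower at 2 h, and 2 higher and 1 lower at 6 h, with medians of 0.14 and 0.16, beside the same 17.0% and 36.6% of all tested genes; with so few genes nothing is read from these counts. SLC4A2, which encodes a chloride-bicarbonate exchanger, stood at 187 ± 21.9 CPM in DMSO and 154 ± 6.22 CPM at 6 h (log2 change -0.28, adjusted p = 0.00176), a call that was lost without 6 h replicate 2 (-0.16, adjusted p = 0.0653). ATP1B1, a subunit of the sodium pump, had 0.150 ± 0.0553 CPM in DMSO, near the level of 3 counts, and 1.74 ± 0.522 CPM at 6 h. It passed the filter on low counts only through its treated libraries, which favours a call in this direction. Its being called higher at 2 h and 6 h is therefore not read as a result.

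**Figure D5:**
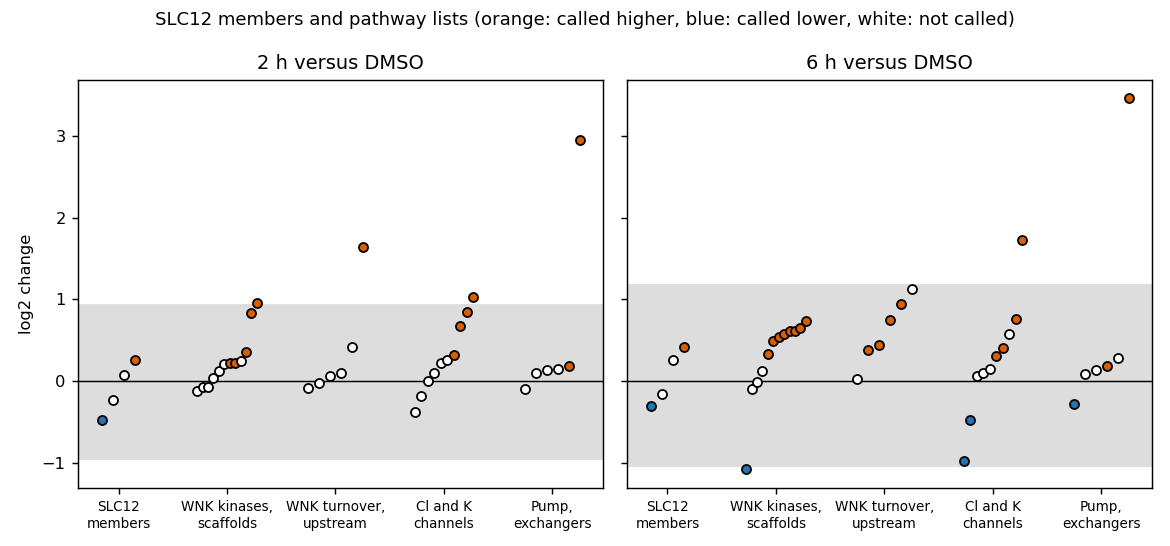
Log2 changes against DMSO of the 4 members and of the tested genes of 4 pathway lists at 2 h (left) and 6 h (right), with 1 point per gene, orange for called higher, blue for called lower and white for not called; the grey band is the 5th to the 95th percentile of all tested genes. The members straddle 0, while 8 of 12 genes of the kinase and scaffold list are called higher at 6 h, beside 18.0% of all tested genes. ATP1B1, drawn as called higher in the pump and exchanger list, is not read as a result.

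The genes whose profiles over the 6 libraries were most like those of the members were found by the root mean square difference of centred log2 CPM, over 10606 genes of at least 4 CPM. For SLC12A2 they were NXF1 (0.0238), PACS1 (0.0275) and ABHD18 (0.0304), against a median of 0.243 over all candidates. For SLC12A7 they were ANKRD11 (0.0256), MAPK14 (0.0396) and SPG7 (0.0410), against 0.257. For SLC12A4 they were TRIP12 (0.0124), CEPT1 (0.0188) and TXNDC15 (0.0195), against 0.199. For SLC12A9 they were POLDIP3 (0.0291), TAB1 (0.0345) and UBN1 (0.0385), against 0.213. All profiles share the same 6 libraries, and the likeness was not tested.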

How the data were processed

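RNA-seq of 6 JJN3 libraries was analysed. The deposited values are raw counts of fragments for each gene, from featureCounts 2.0.0 and GENCODE 34, without regard to strand, from pairs with both ends mapped at a mapping quality of at least 20, per the file headers. Reads were trimmed with Trimmomatic and aligned with STAR to hg38, per the submitters' processing notes; versions are not given in the sources used here. Fragments that overlap exons of 2 genes are not assigned under the header's options. The record broken over 3 lines in the deposited table was rejoined, and 60370 of 60728 identifiers matched a symbol. Merged exon lengths are the deposited ones (another value beside the counts).

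Counts were fitted in R 4.3.3 with edgeR 4.0.16 (quasi-likelihood, all 6 libraries, TMM factors of 0.977 to 1.025, filterByExpr) and calls were made below 0.05 after Benjamini-Hochberg adjustment over 15548 genes. The SE comes from the F statistic. The spread of a gene rested on 3 degrees of freedom of its own and 42.8 shared over all genes. The procedure was run on simulated counts in which all genes had the same spread and few were changed. Spread differs between genes in the real libraries, so that run does not check the error rates here. The members and lists were chosen with earlier results of these data known. Named pathway genes were taken from up to 4 per list and comparison with the smallest adjusted p. OXSR1 and STK39 against DMSO, LRRC8A at 6 h, LRRC8B and KLHL3 were named after their values were seen. Alternatives used DESeq2 1.42.0, limma 3.58.1 voom, other scalings and filters, a replicate block and leaving out each library. The length of the longest coding transcript in GENCODE 29 was added after seeing the data. Promoter windows are RefSeq's. Some genes, and 1 form of the ratio that needs them, are not reported here. Plots used matplotlib 3.10.9 in Python 3.11.15.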

Additional observations from a re-analysis of the deposited data

Results flagged for a closer look

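The change at 6 h differed from the change at 2 h, by the test of 6 h against 2 h in edgeR, for 13 of the 34 tested genes of the 4 pathway lists and for none of the 4 members, where 24.3% of all tested genes were called. On the log2 scale, KCNN4 (0.70), NRBP1 (0.62), NEDD4L (0.38), WNK1 (0.35), CLCN3 (0.29) and STK39 (0.28) were higher at 6 h than at 2 h. WNK2 (-1.01), SGK1 (-0.70), CLCN2 (-0.60) and LRRC8D (-0.47) were lower. These are the up to 4 genes of each list with the smallest adjusted p. The others called were TSC22D4 (0.30) and OXSR1 (0.19), higher, and TSC22D2 (-0.30), lower. Their values with a library left out are not given here, and OXSR1 was close to the threshold (adjusted p = 0.0459, edgeR). SGK1 thus had its highest level at 2 h, 19.9 ± 1.18 CPM against 12.2 ± 2.57 CPM at 6 h. Under some left-out libraries the difference was not called for STK39 (without any 2 h or 6 h library), NEDD4L (without 2 h replicate 2 or 6 h replicate 2), CLCN3 (without 2 h replicate 2 or 6 h replicate 1), and CLCN2 and SGK1 (without 6 h replicate 1).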

How the results depend on the processing

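Of the 12 changes of the 4 members (4 genes in 3 comparisons), none reversed, and 10 stayed on their side of the threshold under all 15 alternatives. The exceptions were SLC12A2 at 2 h and SLC12A7 between 6 h and 2 h. For SLC12A2 at 2 h the call was lost with library size alone (0.23), with no filter on low counts (0.26) and with only the groups compared (0.27), and leaving out a library gave 0.17 to 0.34. For SLC12A7 between 6 h and 2 h the call was gained with library size alone (0.23) and with only the groups compared (0.15), and leaving out a library gave 0.16 to 0.17. The number of members called at 2 h was then 1 in the former 3 settings and 1 to 2 with a library left out, and between 6 h and 2 h it was 1 in the latter 2 settings and 0 to 1 with a library left out. Over all genes, leaving out a library gave 1527 to 2911 calls at 2 h (1527 without 2 h replicate 2) and 2288 to 4661 between 6 h and 2 h (2288 without 6 h replicate 1 and 2372 without 6 h replicate 2), against 2642 and 3772. The cause was not tested.

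With the length of the longest coding transcript the ratio of exporter to importer transcripts was 4.95 in DMSO, 3.10 at 2 h and 3.10 at 6 h, so its size, though not its order against DMSO, depended on the length used. Of 36 named pathway calls, 22 held under every alternative and 14 were lost under at least 1, and none reversed.

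Replicate numbers are shared between groups, and same-numbered libraries also share a letter, A or B, in the deposited column names. Same-numbered libraries did not deviate together (correlations of 0.0834, -0.0897 and -0.0296). These values cannot decide whether they shared a culture or batch, since each group gives a single difference between 2 libraries. With the replicate block 2658, 5686 and 3807 genes were called at 2 h, at 6 h and between them, and SLC12A2 at 2 h stood at 0.26 (adjusted p = 0.0400); the block changed no call of a member. With 2 libraries a group, the 6 h interval of SLC12A4 reaches 0.55 and the 2 h interval of SLC12A9 reaches -0.50, so changes of that size lie within the error of these libraries.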
